A study of Mus musculus with 25 samples.

Results

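The genes described here are the 8 genes Msl1, Msl2, Kat8, Kansl1, Kansl2, Kansl3, Mcrs1 and Phf20, which encode subunits of the MSL and NSL histone acetyltransferase complexes. They were taken by symbol from both RNA count tables, in which all 8 have a row, among 35731 genes of the mouse embryonic stem cell (mESC) table and 24062 genes of the embryo table. Msl2 was selected on a measured value, the score of the wild-type (WT) H3K79me2 peak over it, which is the highest of all, and the others were chosen by complex, so the WT H3K79 methylation of these genes is given as a description without a test. H3K79me2 and H3K79me3 are the dimethylated and trimethylated forms of lysine 79 of histone H3, which the enzyme DOT1L writes in the bodies of transcribed genes. Of the 25 libraries, 8 are ChIP libraries from v6.5 mESCs (2 WT and 2 Dot1L KO for each mark, with antibodies ab3594 for H3K79me2 and ab2621 for H3K79me3), 8 are their inputs, which were not used here, and 9 are RNA libraries. The RNA libraries comprise 3 WT and 2 Dot1L KO libraries of v6.5 mESCs, and 2 DMSO and 2 SGC0946 libraries of wild-type 8-cell embryos of the cross B6D2F1 x Cast/EiJ, where SGC0946 is a small-molecule inhibitor of DOT1L. Each embryo library was made from a pool of 30 to 35 embryos, collected 56 hours after fertilization, so it averages over embryos. The labels give neither the deleted part of Dot1l, the number of KO clones nor the dose of SGC0946, and they do not say that replicates came from separate cultures, so p-values measure the spread between these libraries, which may be technical.

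KAT8, also called MOF, is the acetyltransferase that both complexes share. In the MSL complex, MSL1 is the scaffold that binds KAT8, MSL2 is a RING-finger ubiquitin ligase and MSL3 carries a chromodomain, and the complex is known for acetylating lysine 16 of histone H4. The complex was first described for X-chromosome dosage compensation in flies, and in mammals it acts on autosomes as well. In the NSL complex, KANSL1 is the scaffold, KANSL2, KANSL3 and MCRS1 are further subunits and PHF20 is a Tudor-domain reader of methyl-lysine, and the complex binds promoters of widely expressed genes.

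The mESC libraries held 26860390 to 33754956 counts and the embryo libraries 24950199 to 32479590 counts. RNA levels are in CPM, counts corrected for sequencing depth with edgeR. The mESC and embryo libraries were made with different kits and their tables were fitted separately, so their levels are not compared. Dot1l RNA measured 104, 96.9 and 99.2 CPM in WT and 81.4 and 71.5 CPM in KO, a log2 fold change of -0.39 ± 0.06 (SE). Reads outside a deleted part would still count for Dot1l, so this level does not check the knockout. The 4 KO peak lists held 16 and 12 H3K79me2 peaks and 178 and 328 H3K79me3 peaks, against 66834 and 64084 H3K79me2 peaks and 19800 and 7338 H3K79me3 peaks in WT. All 5 pluripotency markers were tested in mESCs, with a summed level of 2395 to 2429 CPM in WT and 1860 to 1968 CPM in KO. On the log2 scale, Pou5f1 (-0.21), Nanog (-1.02) and Zfp42 (-0.46) were called lower in KO, while Sox2 (-0.06) and Esrrb (-0.07) were not called. Markers of feeder fibroblasts were present too, all 6 of 6, at a summed 156 to 199 CPM in WT and 203 to 251 CPM in KO. Col1a1 (0.62), Thy1 (0.14) and Pdgfrb (0.74) were called higher in KO, while Col1a2 (0.29), Col3a1 (-0.14) and Twist2 (-0.06) were not called. The part of these markers in the member results was not tested. In bulk libraries, fewer cells of a type and less RNA per cell cannot be told apart. In embryos, the summed level of the 6 cleavage-stage markers was 2257 to 2499 CPM with DMSO and 1677 to 2045 CPM with SGC0946. There the 5 cumulus markers summed to at most 1.24 CPM and the 3 sperm markers to at most 0.648 CPM, with Ptx3 and Tnp1 at 0 in all 4 libraries. Fibroblast markers in embryos summed to at most 9.95 CPM, with Col3a1 and Twist2 at 0.

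Msl2 (ENSMUSG00000066415) spans chr9:101074054-101104800 on the plus strand of mm10, the build named in the submitters' processing notes, and the same positions hold in the RefSeq annotation of GRCm38.p6. RefSeq gives Msl2 a pair of start sites, at 101074054 and 101074762. Their promoter windows run from 250 bases before to 50 bases after the start. They are shown because the edge of the H3K79me2 peaks falls inside the downstream window. In both WT lists the peaks cover bases of that window and none of the upstream one. Capitals mark matches, on either strand, to the Sp/KLF box GGGCGG and to the NRF1 motif TGCGCATGC, and the sequences are from RefSeq (GRCm38.p6).
Msl2 upstream promoter, chr9:101073804-101074103, plus strand: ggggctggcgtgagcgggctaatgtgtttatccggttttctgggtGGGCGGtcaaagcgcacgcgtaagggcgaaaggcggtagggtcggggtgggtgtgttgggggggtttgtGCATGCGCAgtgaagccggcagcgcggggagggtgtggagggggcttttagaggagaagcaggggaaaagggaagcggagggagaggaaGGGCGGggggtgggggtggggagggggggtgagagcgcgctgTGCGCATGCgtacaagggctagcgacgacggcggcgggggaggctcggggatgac
Msl2 downstream promoter, chr9:101074512-101074811, plus strand: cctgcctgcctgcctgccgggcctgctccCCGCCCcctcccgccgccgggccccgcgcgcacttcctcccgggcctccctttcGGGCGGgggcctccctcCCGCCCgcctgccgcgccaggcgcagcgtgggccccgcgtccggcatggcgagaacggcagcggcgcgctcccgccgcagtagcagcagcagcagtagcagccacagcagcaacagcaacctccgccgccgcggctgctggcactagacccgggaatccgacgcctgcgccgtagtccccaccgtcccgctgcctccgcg

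Both Msl2 windows are rich in G and C, at 67.7% in the upstream and 78.0% in the downstream window, against a median of 52.7% over 32851 promoter windows of the same length. The upstream window holds 26 CG dinucleotides and the downstream window 40, where the median window holds 7. In the upstream window the script found 2 NRF1 matches, which begin 136 and 5 bases before the start, and 2 Sp/KLF matches. The NRF1 letters occur in 1.52% of all windows and the Sp/KLF letters in 35.7%. The downstream window holds 3 Sp/KLF matches. Neither window matches the YY1 motif AAGATGGCG, which 1.40% of all windows hold, the E box CACGTG (7.15%) or the HCF-1-linked letters ACTACA (10.3%). The printed matches do not overlap each other, and they are letters in a window, since binding was not measured.

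Kat8 is shown for comparison, since its H3K79me2 also begins in the downstream one of its windows. Its 2 RefSeq starts lie at 127912517 and 127913014 of chromosome 7, and the first H3K79me2 peak begins at 127913014 and 127913026 in the 2 WT lists, at or just past the downstream start. Capitals here mark matches to the Sp/KLF box, the NF-Y box CCAAT and the ETS motif CCGGAAG, which 35.7%, 37.4% and 8.86% of all windows hold.
Kat8 upstream promoter, chr7:127912267-127912566, plus strand: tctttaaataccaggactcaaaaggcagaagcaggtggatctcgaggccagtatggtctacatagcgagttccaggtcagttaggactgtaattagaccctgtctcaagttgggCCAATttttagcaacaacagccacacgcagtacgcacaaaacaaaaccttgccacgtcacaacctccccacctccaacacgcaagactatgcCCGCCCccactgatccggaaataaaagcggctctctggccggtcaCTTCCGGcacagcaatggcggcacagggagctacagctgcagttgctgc
Kat8 downstream promoter, chr7:127912764-127913063, plus strand: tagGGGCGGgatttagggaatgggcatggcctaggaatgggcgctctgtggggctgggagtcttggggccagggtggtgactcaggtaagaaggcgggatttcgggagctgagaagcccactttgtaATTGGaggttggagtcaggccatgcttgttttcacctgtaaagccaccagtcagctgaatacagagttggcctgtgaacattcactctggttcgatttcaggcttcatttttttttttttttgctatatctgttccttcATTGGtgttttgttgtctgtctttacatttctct

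The Kat8 windows are less rich in G and C, at 53.0% and 48.3%, with 12 and 5 CG dinucleotides. All 8 members matched the promoter table, with 13 windows in all, and 0 of the 13 held the TATA box TATAAA, which 13.6% of all windows hold. H3K79me2 peaks in both WT lists touched 3 of the 13 windows, the downstream ones of Msl1, Msl2 and Kat8. The share of all 32851 windows touched by such peaks was not computed, so whether this count is usual is not known. The 13 windows are not all separate either, since 2 of those of Kansl1 overlap each other.

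Every member carried H3K79me2 in WT mESCs and none had a peak of either mark in the KO lists. Those lists held only 16 and 12 H3K79me2 and 178 and 328 H3K79me3 peaks over the whole genome. Having no KO peak is therefore not particular to the members. All 8 had an H3K79me2 peak over the gene in both WT lists, where 37.6% of 21887 protein-coding genes did. Only Msl2, Kansl1 and Kansl2 had an H3K79me3 peak in both WT lists, where 9.96% of protein-coding genes did. Both shares include genes with too few RNA counts to be tested, while all 8 members were tested. The shares among tested genes alone were not computed. The authors called peaks in each library by itself, and each enrichment (fold over background) and −log10 q is the authors' own value for that peak. In all, 105 and 122 H3K79me2 peaks in WT replicates 1 and 2 lay over the 8 genes. Members differed widely in how much of the gene the peaks covered. Coverage was 71.6 and 72.3% of Msl2 in the 2 replicates, 60.2 and 58.2% of Kansl2, and 58.9 and 58.96% of Kansl1. It was lowest over the catalytic gene Kat8, at 5.93 and 11.5%. Coverage was 20.7 and 27.4% of Mcrs1, 25.4 and 15.8% of Msl1, 29.0 and 22.9% of Kansl3, and 31.0 and 31.8% of Phf20, and the order of Mcrs1, Msl1 and Kansl3 differed between the replicates. The median over all genes with an H3K79me2 peak was 19.8% in replicate 1 and 17.9% in replicate 2, so 7 of 8 members in replicate 1 and 6 of 8 in replicate 2 lay above it.

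**Figure D1:**
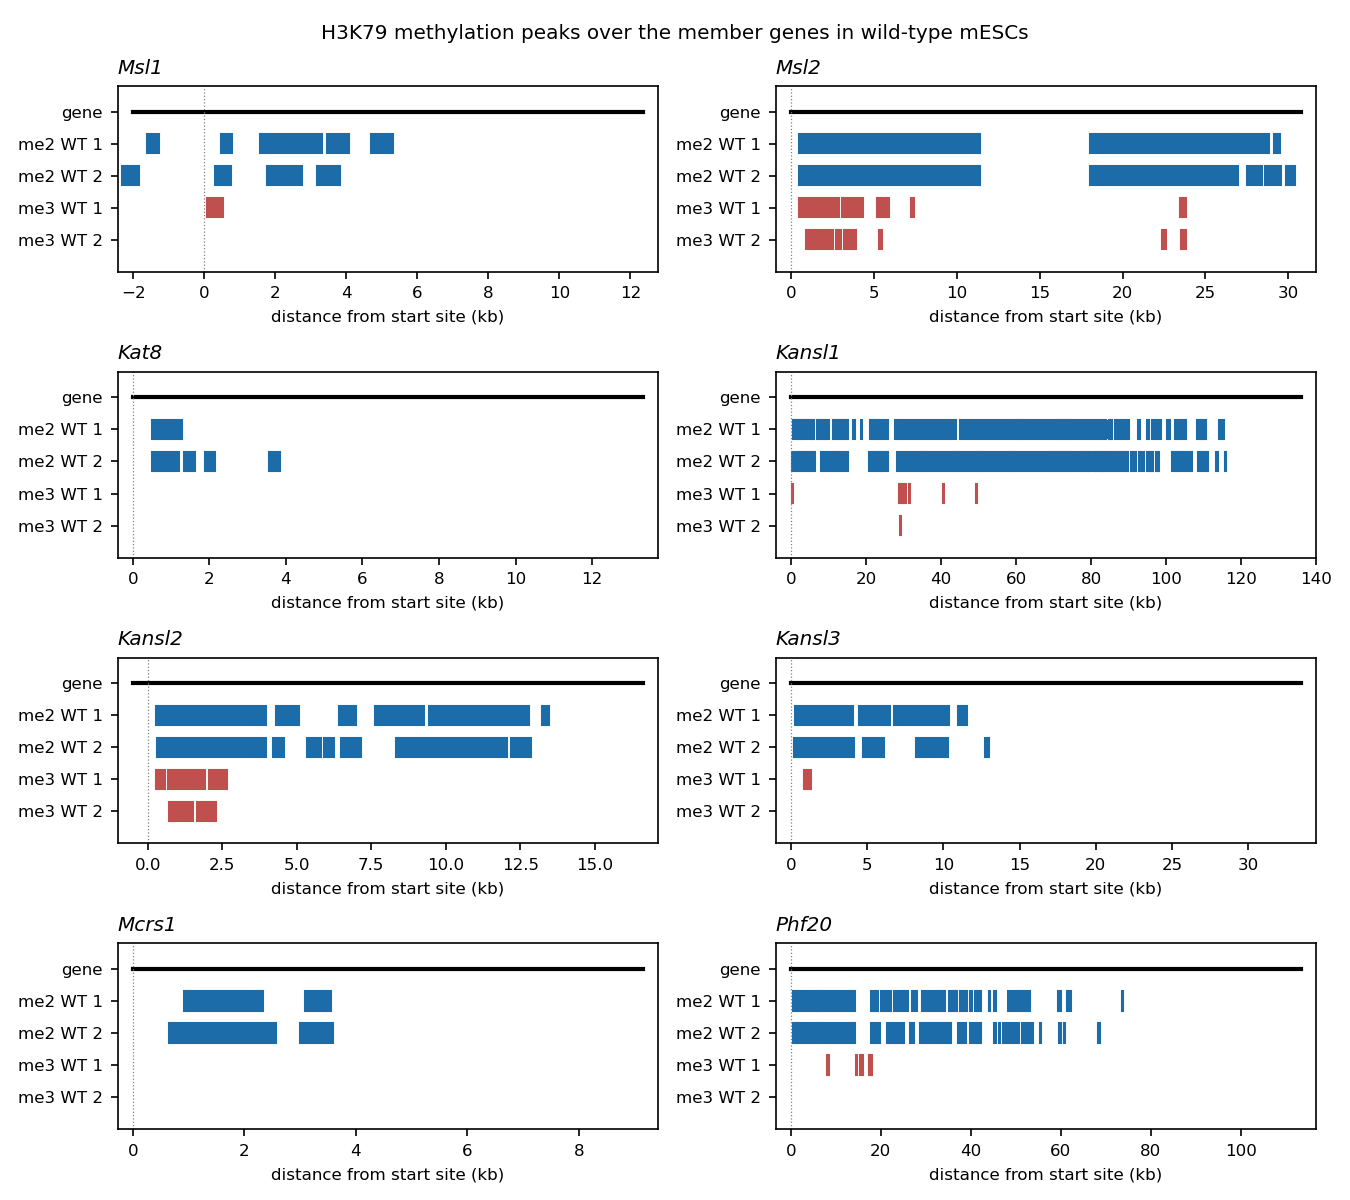
Peaks of H3K79me2 (blue) and H3K79me3 (red) in the 2 WT replicates over each of the 8 genes, drawn against the distance in kb downstream of the first start site in the promoter table (dotted line); the black line is the gene. Blue blocks lie in the 5' part of most genes, while Msl2 has a separate block from 18.03 kb on.

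Peaks began downstream of the first start in the promoter table in 7 of 8 members, and the share of all genes with this was not computed. The count depends on that choice of start, since the peaks of Msl2 and Kansl1 begin before the downstream starts of these genes. The distance from the first start in the promoter table to the nearest H3K79me2 edge was 0.176 kb for Kansl1 in replicate 2 at the least and 0.923 kb for Mcrs1 in replicate 1 at the most. Msl1 (chr11:98793508-98807862) is the exception, with edges 1.62 and 2.32 kb before that start. There the annotated gene itself begins upstream of that start, and the edge in replicate 2 lies upstream of the annotated gene as well. H3K79me2 ended before the 3' part of Phf20 and Kansl3, and also of Kat8, Mcrs1 and Msl1. The last peak ended 1.3 and 3.8 kb from the start of Kat8 (13.3 kb long) and 3.5 and 3.6 kb from that of Mcrs1 (9.1 kb). For Msl1 (14.4 kb) the distances were 5.3 and 3.8 kb. In Phf20 (chr2:156196647-156309953, 113 kb long) the last peak ended 73.9 and 68.8 kb from the start, and in Kansl3 (chr1:36335730-36369193, minus strand, 33.5 kb) it ended 11.6 and 13.0 kb from the start. Kansl1 (chr11:104333501-104469508, minus strand) had 80.1 and 80.2 kb under 47 and 62 peaks, reaching 115 and 116 kb from the start of a gene of 136 kb.

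Of the 4 and 6 H3K79me2 peaks over Msl2 in replicates 1 and 2, the first 2 formed separate blocks. The others lay farther downstream, reaching 29.5 and 30.4 kb from the start. The 5' block spanned chr9:101074537-101085483 in replicate 1 and chr9:101074524-101085472 in replicate 2, at the authors' enrichment of 13.1-fold and 12.6-fold with −log10 q of 44.5 and 40.4. After a gap of 6.60 and 6.63 kb without a peak, the highest-scoring peak spanned chr9:101092080-101100877 in replicate 1 and chr9:101092098-101100994 in replicate 2. That peak ranked 1 of all peaks by −log10 q in both lists, at 96.1 and 99.5, but only 1519 and 817 by enrichment, at 8.58-fold and 9.28-fold. The score in the lists is the −log10 q times 10, so score and enrichment order this peak differently.

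Msl2 was chosen for this score, so that its −log10 q exceeds that of every other peak is fixed by the choice, and the values of peaks of like enrichment are given as a description. Among 1330 peaks in replicate 1 whose enrichment was within 10% of that of the Msl2 peak, the median −log10 q was 22.9 and the next highest was 66.7. In replicate 2 the median of 901 such peaks was 24.9 and the next highest was 60.1. The 5' block of Msl2 sat at the median of its own class, at 44.5 and 40.4. The next regions in replicate 1 lay over Srsf3, a splicing factor gene (chr17:29032737-29039387), with 18.7-fold and a −log10 q of 88.4, and over Hnrnpf, an RNA-binding protein gene (chr6:117906920-117916481), with 20.6-fold and 88.1. Both had over 2 times the enrichment of the Msl2 peak at a lower −log10 q. In replicate 2 the second peak lay over Ptbp1 and Plppr3, with 20.4-fold and 83.9.

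**Figure D2:**
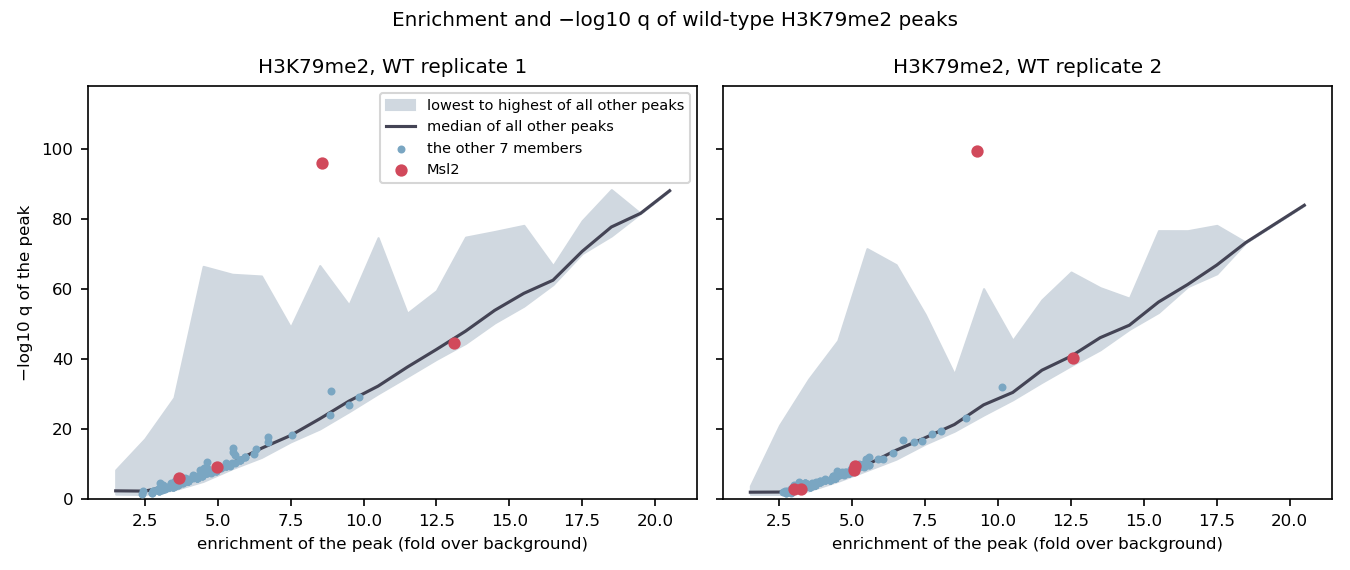
Authors' −log10 q of each H3K79me2 peak against its enrichment in fold over background, in WT replicate 1 (left) and replicate 2 (right). Grey bands run from the lowest to the highest of all peaks outside Msl2 in bins of 1 fold, the line is their median, and points are peaks over the 8 genes; the Msl2 peak at 96.1 and 99.5 lies above the band, as the choice of Msl2 by this peak's score fixes, and the Msl2 5' block lies within the band.

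The summits of that peak and of 2 small H3K79me3 peaks fell within 8 bp. H3K79me2 had its summit at 101097719 in replicate 1 and 101097720 in replicate 2, and H3K79me3 at 101097726 and 101097725, which is 23.7 kb from the upstream start of Msl2. These H3K79me3 peaks spanned only chr9:101097531-101097878 and chr9:101097560-101097885. Their enrichment was 4.91-fold and 3.92-fold, with −log10 q of 34.7 and 22.0, where the median of peaks of like enrichment was 7.49 and 3.54. Among those, 10 of 3603 in replicate 1 and 17 of 2146 in replicate 2 had a −log10 q at least as high. These H3K79me3 peaks were taken as the ones over Msl2 with the highest −log10 q in each list. Their high −log10 q thus follows in part from that choice, and the values are a description. No KO list had a peak over Msl2, and the KO lists held few peaks in all. The annotation used here gives gene ends but not exons, so whether the summits lie in an exon, an intron or an untranslated part was not determined, and why score and enrichment part at this site was not tested.

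H3K79me3 elsewhere over the members was sparse. Msl2 had 6 H3K79me3 peaks in each replicate, over 16.01 and 11.02% of the gene, and its 5' group began 0.506 and 0.891 kb from the start. Kansl2 (chr15:98517658-98534770, minus strand) had 3 and 2 peaks over 12.3 and 8.40% of the gene. Kansl1 had 8 peaks in replicate 1 and 1 in replicate 2, over 1.52 and 0.145%. Msl1, Kansl3 and Phf20 had H3K79me3 peaks in replicate 1 only, and Kat8 and Mcrs1 had none in either. Replicate 2 held 7338 peaks in all against 19800 in replicate 1, so the count in both lists is set by the shorter one.

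In Dot1L KO mESCs, 5 of the 8 members had lower RNA than in WT and 0 had higher RNA, by edgeR's quasi-likelihood test at an adjusted p under 0.05. The 5 were Msl2, Kansl1, Kansl2, Kansl3 and Mcrs1, with log2 fold changes of -0.16 to -0.22. Over all 19532 genes tested, 43.9% were called and 21.6% were called lower, and among genes with H3K79me2 peaks in both WT lists, as all members have, 33.9% were called lower. The members' median log2 fold change was -0.16, against 0.00 over all genes tested and -0.05 over the genes with H3K79me2 in both WT lists. All 8 members passed the filter on low counts. These were small changes in this comparison, since 53.3% of all tested genes had a larger absolute log2 fold change than Msl2 and the median of called genes was 0.44.

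Msl2 RNA measured 96.5, 101 and 97.5 CPM in WT and 83.6 and 85.2 CPM in KO. Both KO libraries lay below all 3 WT libraries. The log2 fold change was -0.22 ± 0.05 (SE, n = 3 WT and 2 KO), with an adjusted p of 0.00167 in edgeR. The other MSL subunit genes among the members did not pass the test. Msl1 measured 48.1, 44.7 and 42.9 CPM in WT and 41.6 and 45.5 CPM in KO, so its groups overlapped, and its log2 fold change was -0.05 ± 0.06 with an adjusted p of 0.513 in edgeR. Kat8 (chr7:127912517-127925838), the gene of the shared acetyltransferase, measured 25.3, 24.8 and 24.1 CPM in WT and 25.4 and 27.5 CPM in KO. Its 2 KO libraries lay above the WT libraries by a narrow margin, with a log2 fold change of 0.10 ± 0.06 and an adjusted p of 0.215 in edgeR. Under upper-quartile scaling Kat8 was called higher, at 0.17 with an adjusted p of 0.0397 in edgeR, and that scaling moved the median of all genes by 0.07 and the share of higher calls from 50.8 to 63.5% (5503 higher and 3168 lower, against 4351 and 4221). Msl1 is at 0.01 under that scaling and without KO replicate 1, so its sign turned.

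Among the NSL genes, the scaffold gene Kansl1 measured 153, 154 and 152 CPM in WT and 129 and 135 CPM in KO. The WT libraries lay close together and both KO libraries lay below them. Its log2 fold change was -0.21 ± 0.04, with an adjusted p of 0.00119 in edgeR. Kansl2 measured 111, 111 and 110 CPM in WT and 95.0 and 101 CPM in KO, again without overlap, at -0.18 ± 0.04 with an adjusted p of 0.00506 in edgeR. For Kansl3 the WT levels were 63.1, 58.3 and 61.2 CPM and the KO levels 56.7 and 52.2 CPM. The gap between the groups is small beside the spread within them, and the log2 fold change was -0.16 ± 0.05 with an adjusted p of 0.0304 in edgeR. Mcrs1 (chr15:99242817-99251961, minus strand), whose product also sits in other chromatin complexes, gave 58.3, 54.3 and 58.7 CPM in WT and 52.4 and 49.6 CPM in KO. Its log2 fold change was -0.16 ± 0.05, with an adjusted p of 0.0242 in edgeR. Phf20, the gene of the methyl-lysine reader, measured 152, 155 and 158 CPM in WT and 156 and 160 CPM in KO, with overlapping groups, a log2 fold change of 0.02 ± 0.04 and an adjusted p of 0.669 in edgeR.

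**Figure D3:**
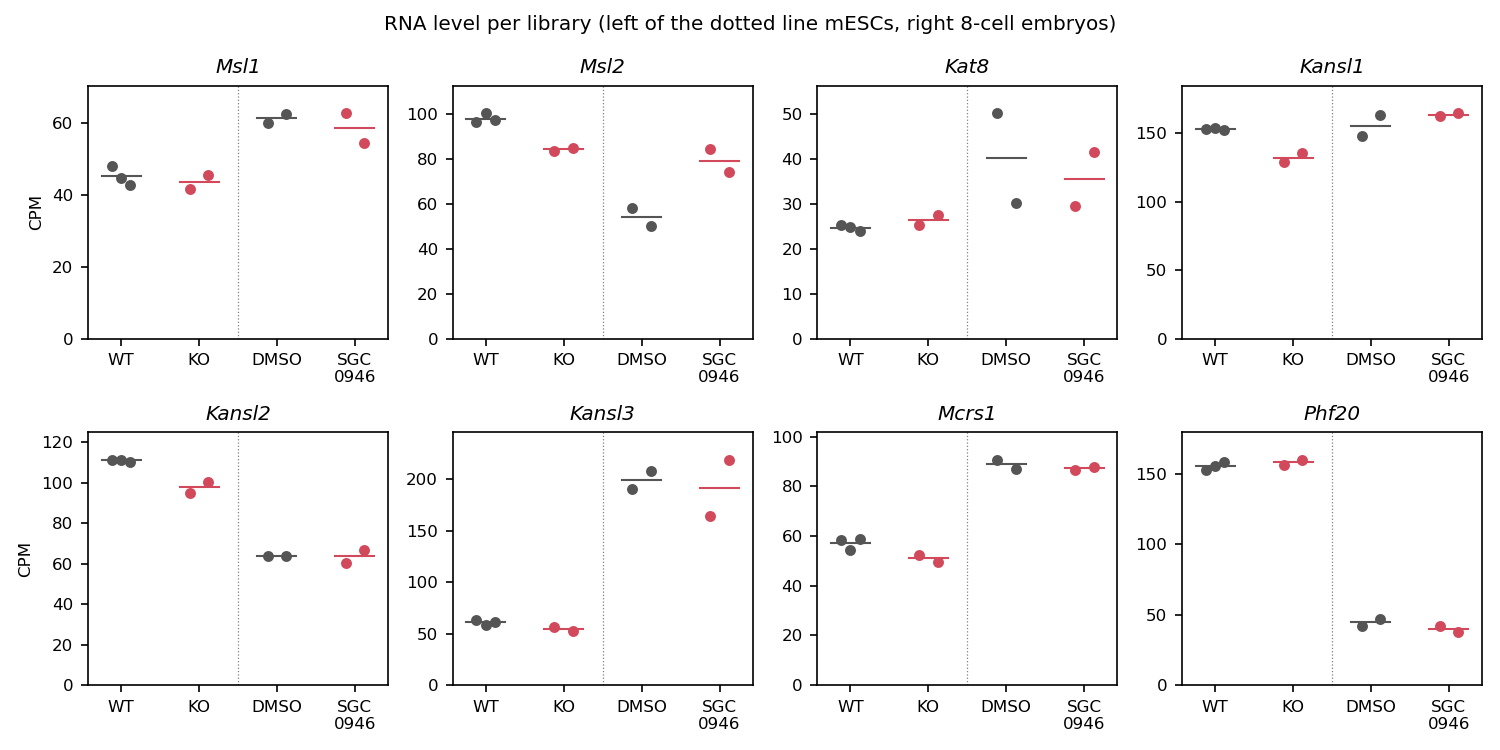
RNA level in CPM of each of the 8 genes in every library, with lines at the group means; mESC libraries (3 WT, 2 KO) are left of the dotted line and embryo libraries (2 DMSO, 2 SGC0946) right of it, and the 2 sides come from separate tables and are not comparable. Msl2 lies lower in the KO libraries (83.6 and 85.2 CPM) than in WT and higher in the SGC0946 libraries (84.6 and 74.1 CPM) than with DMSO.

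The groups did not overlap for 6 of the 8 members, where this held for 62.5% of all genes tested. Msl2, Kansl1 and Kansl2 were called in all 13 alternative fits. Kansl3 lost its call in 5 of 13 (adjusted p up to 0.195), and Mcrs1 in 6 of 13 (up to 0.168). Both lost it in DESeq2, under upper-quartile scaling, and without WT replicate 1, WT replicate 3 or KO replicate 2, so the count of members called falls to 3 in DESeq2 and without each of those libraries. Msl1, Kat8 and Mcrs1 overlap other annotated genes at least in part, and small RNA genes lie in Kansl2 and Kansl3. Whether counting used strand is not given in the sources used here, so reads of those neighbours may be counted with them.

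All 4 listed subunit genes outside the members, Msl3, Wdr5, Ogt and Hcfc1, were lower in KO. Of the 9 genes listed for the NSL complex, 7 were lower in KO and 0 higher, with a median log2 fold change of -0.18, and of the 4 listed for the MSL complex, 2 were lower and 0 higher. Over all genes tested 21.6% were called lower, as were 33.9% of genes with H3K79me2 peaks in both WT lists. The counts of lower genes include the X-linked Ogt and Hcfc1 (NSL) and Msl3 (MSL), and Msl3 had no H3K79me2 peak in either WT list. Wdr5, whose product also serves the MLL complexes, fell from a mean of 221 CPM to 179 CPM, at -0.31 ± 0.04. Msl3, Ogt and Hcfc1 were lower as well, at -0.47, -0.31 and -0.57 on the log2 scale, and OGT is the O-GlcNAc transferase and HCFC1 the promoter cofactor of the NSL complex. These 3 genes lie on the X chromosome, where 444 of 734 tested genes were lower and 35 higher in KO with a median of -0.57, so their level moved with that of the chromosome, and its part in their change was not tested. The 8 members are all autosomal.

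Related enzymes did not share one direction. Of the 4 other MYST acetyltransferase genes, Kat6a (-0.23) and Kat6b (-0.77) were lower, and Kat5 (0.16) and Kat7 (0.12) were higher. Kat6b fell from a mean of 545 to 320 CPM. Among the deacetylase genes whose products act on H4K16, Sirt2 rose from 14.6 to 18.1 CPM (0.31 ± 0.08), and Sirt1 measured 137, 144 and 139 CPM in WT and 120 and 144 CPM in KO with overlapping groups. Of the 3 paralogs, Kansl1l was lower (-0.17), while Phf20l1 (0.12) and Msl3l2 (0.04) did not pass the test. Of the genes under the next high-scoring H3K79me2 regions, Srsf3 was lower at -0.19 ± 0.05 (adjusted p of 0.00705 in edgeR) and Hnrnpf was at -0.09 ± 0.04 (adjusted p of 0.0809 in edgeR, not passed).

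In 8-cell embryos, no member passed the test between SGC0946 and DMSO, and neither did any of the 14351 genes tested (0%) in edgeR. Without adjustment, p was under 0.05 for 1169 of them (8.15%), and Msl2 was the one member there. DESeq2 called 126 genes and limma-voom 55, with 0 members in either. Msl2 measured 58.1 and 50.2 CPM with DMSO and 84.6 and 74.1 CPM with SGC0946. Both SGC0946 pools lay above both DMSO pools, and Msl2 was the one member whose groups did not overlap, which 39.2% of all tested genes showed. Its log2 fold change was 0.55 ± 0.19 (SE, n = 2 and 2 pools), rank 364 by p and an adjusted p of 0.437 in edgeR. Over 12 alternatives the log2 fold change of Msl2 ranged from 0.45 to 0.66 and its adjusted p from 0.135 to 0.999 in the tools used. In absolute size, 29.3% of tested genes changed more.

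The remaining 7 members had overlapping groups in embryos. Kat8 varied within both groups, at 50.3 and 30.3 CPM with DMSO and 29.5 and 41.6 CPM with SGC0946, so neither treatment was consistently higher. Msl1 measured 60.2 and 62.6 CPM with DMSO and 62.8 and 54.5 CPM with SGC0946. Kansl1 was level across pools, at 148 and 164 CPM with DMSO and 163 and 165 CPM with SGC0946. Kansl2 measured 63.7 and 64.0 CPM with DMSO and 60.5 and 66.9 CPM with SGC0946, and Mcrs1 measured 90.8 and 86.8 CPM and then 86.6 and 87.9 CPM. For these 3 genes the mean with SGC0946 was 98.2 to 105% of that with DMSO. Kansl3 measured 190 and 208 CPM with DMSO and 164 and 219 CPM with SGC0946, the wider spread being in the treated pools. Phf20 measured 42.0 and 47.0 CPM with DMSO and 42.1 and 37.5 CPM with SGC0946. The log2 fold changes of the 7 ran from -0.18 ± 0.28 for Kat8 to 0.07 ± 0.14 for Kansl1.

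**Figure D4:**
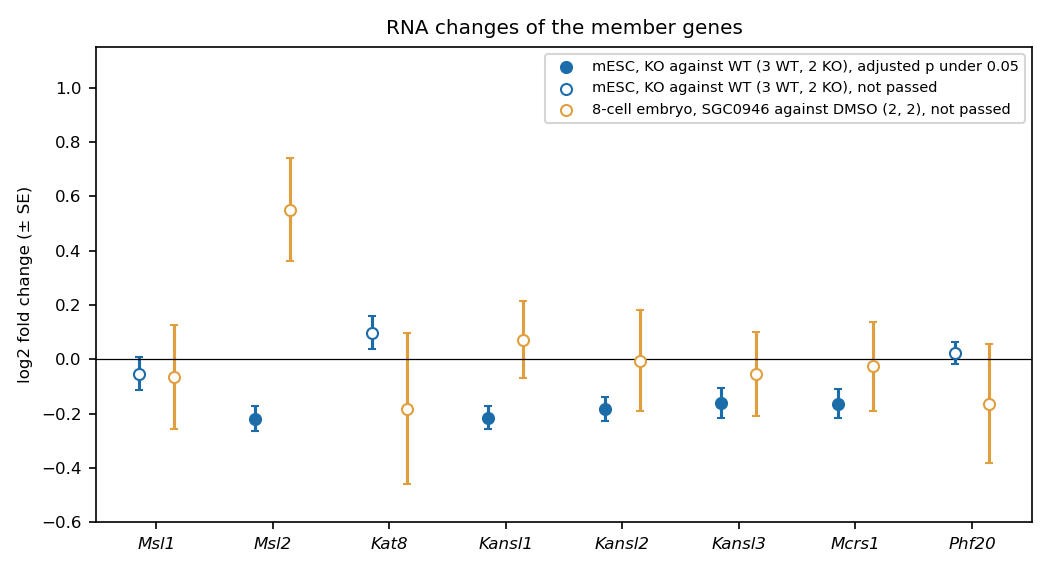
Log2 fold change with its SE of each of the 8 genes, in mESCs (KO against WT, blue) and 8-cell embryos (SGC0946 against DMSO, orange); filled points passed an adjusted p under 0.05. Filled points are the 5 lower mESC genes, and the Msl2 embryo point is at 0.55 with an SE of 0.19.

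Among the other listed subunit, paralog, acetyltransferase and deacetylase genes in embryos, Wdr5 had the lowest p. It measured 434 and 360 CPM with DMSO and 305 and 293 CPM with SGC0946. Its log2 fold change was -0.41 ± 0.13, rank 269 by p and an adjusted p of 0.398 in edgeR, so it did not pass. Of the marker genes, Esrrb (-0.64) and Pou5f1 (-0.49) had a lower p than Wdr5, at ranks 20 and 55, and did not pass either. Kat7 (134 and 139 CPM, then 110 and 106 CPM) was at -0.34, with an adjusted p of 0.596 in edgeR. Msl3 measured 32.7 and 31.3 CPM with DMSO and 37.1 and 38.4 CPM with SGC0946, at 0.24 ± 0.23. Dot1l itself measured 278 and 256 CPM with DMSO and 221 and 214 CPM with SGC0946, at -0.29 with an adjusted p of 0.582 in edgeR.

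Msl2 thus lay lower in KO mESCs and, without passing the test, higher in treated embryos, at -0.22 ± 0.05 and 0.55 ± 0.19. The difference between the 2 comparisons was not tested, since tables, cells and perturbations differ. Across the 9 RNA libraries, with log2 CPM centred within each table, the genes whose pattern was most like that of Msl2 among 10667 others were Szrd1 (Pearson r = 0.99), Zfp953 (0.99) and Chad (0.99). This is a description over libraries that share their group structure, so 2 groups per table set much of it. No other member followed Msl2 closely: Kansl1 had r = 0.47, and Phf20 had r = -0.64.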

How the data were processed

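H3K79me2 and H3K79me3 ChIP peaks and RNA were analysed by genotype, treatment and mark in the labels. The deposited mESC table holds estimated counts (expected counts) per Ensembl gene, rounded here before fitting, and the deposited embryo table holds whole read counts per symbol. The submitters' processing notes list kallisto, STAR and HTSeq for RNA, Bowtie2 and MACS2 for ChIP, and mm10, without versions, and do not say which tool made the mESC table. The authors' peak lists, per library, give a score, an enrichment (ratio, fold over background), a −log10 p, a −log10 q and another value, the summit offset. Columns of per-sample values without a sample numbered 0.

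The 2 RNA tables were fitted separately with edgeR 4.0.16 in R 4.3.3 (filterByExpr, TMM, quasi-likelihood test, Benjamini-Hochberg over all tested genes, called at an adjusted p under 0.05), and the code was tested on simulated data. Each SE is the absolute log2 fold change divided by the square root of the F statistic of that test. Alternatives used DESeq2 1.42.0, limma 3.58.1, other scalings and filters, a replicate block, and fits without each library. A peak counted for a gene from an overlap of 1 bp, in Python 3.11.15. Gene positions and promoter windows are those of RefSeq GRCm38.p6. Each motif was searched on both strands. Members and gene lists were chosen with earlier results of these data known. Named genes were the 8 members, Dot1l, listed genes called in mESCs, the genes under the next highest-scoring regions and the 3 genes most like Msl2; listed genes that were not called, Ptbp1 and Plppr3 were named after their values were seen.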

Additional observations from a re-analysis of the deposited data

How the results depend on the processing

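Msl2, Kansl1 and Kansl2 stayed called and lower in mESCs under all 13 alternatives. The number of members called in mESCs was 5, against 3 in DESeq2, 4 under upper-quartile scaling and 3 to 5 when 1 library was left out. Msl1 changed sign under upper-quartile scaling (0.0139) and ranged from -0.12 to 0.0084 when 1 library was left out. In embryos 0 members were called under any of the 12 alternatives, while the number of all genes called was 0 in edgeR, 126 in DESeq2, 55 in limma-voom, 111 without the filter, 23 with at least 10 counts in every library, and 4 to 365 when 1 library was left out; the cause was not tested. Signs that turned in embryos were those of Kansl2 (0.00062 under upper-quartile scaling, 0.0019 with at least 10 counts, -0.0782 to 0.0702 when 1 library was left out), Kansl3 (-0.28 to 0.14), Kat8 (-0.50 to 0.23), Mcrs1 (-0.0564 to 0.0049) and Msl1 (-0.17 to 0.0335), the last 4 when 1 library was left out. A lone library in a group was then assumed to vary like the others. With the replicate number as a block, 4 members and 8160 genes were called in mESCs and 0 members and 171 genes in embryos. Deviations from the group mean of same-numbered libraries had correlations of 0.0068 and -0.03 in mESCs and 0.05 in embryos. With 2 libraries in a group the deviations mirror each other, so exchanging the numbers in that group only changes the sign of a value. The values were small, and whether the numbers pair the samples was not tested. H3K79me3 was on 3 members in both WT lists, on 2 at a −log10 q of at least 5, and on 3 to 6 when 1 replicate was left out. Levels per exonic length were not run, since exon lengths were not used here, so levels are not compared between genes. With 2 libraries in most groups, the spread rests on few samples.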
